A study of Homo sapiens with 32 samples.

Results

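The genes described here serve antigen presentation by MHC class I, the surface complex through which a cell shows fragments of its own proteins to CD8+ T cells. The 9 members, taken by name from a table of 60728 Ensembl genes in which each had 1 entry, were the heavy chains HLA-B, HLA-C, HLA-E and HLA-F, the light chain B2M, the peptide transporter subunits TAP1 and TAP2, the loading factor TAPBP and the regulator NLRC5. The human lines were A549, from a lung adenocarcinoma, and SK-MEL-147, from a melanoma. Cells stayed untreated or received 1 of 3 drugs, and polyadenylated RNA was taken on day 7 for sequencing. Both lines received doxorubicin, a topoisomerase poison that breaks DNA, at 100 nM. Palbociclib, an inhibitor of the cyclin-dependent kinases that drive entry into the cycle, was used at 5 uM in A549 and 1 uM in SK-MEL-147. INK128, an inhibitor of the growth kinase mTOR, was used at 200 nM in A549 and 100 nM in SK-MEL-147. Doxorubicin and palbociclib were removed after 72 h to make senescent cells, and INK128 was renewed every 3 days to hold a diapause-like state. The 8 groups had 4 libraries each. The medium was changed every 3 days in all 8 groups, the untreated ones included. Beyond this and the missing drug, no label describes the untreated cells.

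Class I heavy chains fold in the endoplasmic reticulum with the light chain B2M and wait for a peptide. Proteasomes cut the peptides, the transporter made of TAP1 and TAP2 carries them in, and tapasin, the product of TAPBP, holds empty class I molecules beside the transporter until a fitting peptide binds. HLA-B and HLA-C present peptides to T cells and are read by killer-cell receptors, HLA-E presents mainly leader peptides of other class I chains to NKG2 receptors of natural killer cells, and HLA-F is a sparse non-classical chain. NLRC5 is a nuclear protein that switches on class I genes, B2M and TAP1 through a promoter module bound by RFX, CREB and NF-Y proteins. Interferons raise the same genes through STAT and IRF factors, which bind their own element beside that module. Tumour cells often hold this set of genes low, and senescent cells have been described as raising it.

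Promoter stretches are shown because most members moved together, and because they hold the elements through which the pathway is known to act. In RefSeq promoters on GRCh38.p14, 7 of the 9 members were matched, all but HLA-E and NLRC5. Capitals mark every match, on either strand, to AANNGAAA or a tandem of GAAA, any 2 bases and GAAA (interferon response elements), TTCNNNGAA (STAT sites), GGG, any 2 bases and TTCCC (NF-kB sites), ATTGG (NF-Y sites) or TGACG (CREB sites). Any match to the tandem also holds AANNGAAA. The stretch of HLA-B runs from -180 to -51 relative to the start of transcription (chr6:31357230-31357359, minus strand), that of HLA-C likewise from -180 to -51 (chr6:31272143-31272272, minus strand), and that of B2M from -150 to -31 (chr15:44711367-44711486, plus strand).
HLA-B: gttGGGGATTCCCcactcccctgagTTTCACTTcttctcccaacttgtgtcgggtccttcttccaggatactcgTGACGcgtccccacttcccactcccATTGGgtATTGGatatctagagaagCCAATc
HLA-C: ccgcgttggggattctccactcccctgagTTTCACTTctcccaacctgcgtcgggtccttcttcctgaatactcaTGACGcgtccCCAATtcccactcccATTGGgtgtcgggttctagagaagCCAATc
B2M: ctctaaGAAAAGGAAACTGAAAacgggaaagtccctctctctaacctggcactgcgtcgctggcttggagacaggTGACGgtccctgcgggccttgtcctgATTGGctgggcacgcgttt
HLA-B and HLA-C shared the interferon element TTTCACTT, a TGACG and several NF-Y sites. Only HLA-B among the 7 matched GGG, any 2 bases and TTCCC, and other forms of NF-kB site were not searched. The short stretches of the other members show their interferon elements, at chr6:29723274-29723303 (HLA-F, plus strand), chr6:32853815-32853844 (TAP1, minus strand), chr6:32838785-32838814 (TAP2, minus strand) and chr6:33314079-33314103 (TAPBP, minus strand).
HLA-F: agagTTTCTCTTTCtctcccaacccgtgtc
TAP1: ggccgcTTTCGATTTCGCTTTCccctaaat
TAP2: gccttggctggggAAGCGAAAGCGAAAgct
TAPBP: tggagGAAAGTGAAAGTGAAAggag
In the 250 bases before the start, AANNGAAA was present in 7 of 7 members and in 20.3% of 35116 promoters. The tandem was present in 5 members, HLA-F, B2M, TAP1, TAP2 and TAPBP, and in 3.02% of promoters. ATTGG was present in 5 members against 32.0% of promoters, TGACG in 4 against 21.2%, the searched NF-kB form in 1 against 1.97%, and TTCNNNGAA in 0 against 6.57%. These are matches of letters, and none was tested as a bound site.

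Totals ran from 28150560 to 33331334 counts a library in A549 and from 17929732 to 32407057 in SK-MEL-147. A549 libraries titled 2 and 2-2 carry the same replicate number and were added, which gave 3 samples a group in A549 and 4 in SK-MEL-147. Within each A549 group the libraries 2-2 and 3 were the most alike, with an SD of log2 ratios of 0.0971 to 0.156 over genes with at least 10 CPM, against 0.376 to 0.487 for 2 and 2-2, so that the summed replicate 2 and replicate 3 may not be independent. A549 replicate 1 stood apart. It held transcripts typical of the melanoma line: SOX10, a neural crest factor, was at 0.657 CPM (counts scaled to a common library total) in untreated replicate 1 and at 8.18, 6.82 and 18.0 CPM in replicate 1 with doxorubicin, palbociclib and INK128, against 0 to 0.0357 CPM in the other 8 A549 samples. CD74, the class II invariant chain, was at 1.02 to 26.9 CPM in replicate 1 and at 0.0336 to 0.156 CPM in the others. As a percentage of the SK-MEL-147 library of the same number and treatment, SOX10 in A549 replicate 1 stood at 0.229% (untreated), 3.15% (doxorubicin), 3.12% (palbociclib) and 3.66% (INK128), where HLA-B stood at 17.85%, 15.8%, 34.5% and 20.2%. Mitochondrial transcripts made up 18.3% and 17.3% of the counts in replicate 1 with doxorubicin and palbociclib, against 7.53% to 9.81% in the other libraries of these groups. The part of these differences in the class I values was not tested, and changes of the class I genes in A549 are given with and without replicate 1 where they were called. For INK128 the description of the series gives a different melanoma line than the sample labels, and the labels were used.

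Epithelial markers (7 genes) summed to 4148 to 14500 CPM over the A549 samples and to 140.3 to 199.8 CPM in SK-MEL-147. Of 8 melanocyte markers, SOX10 was at 154 to 584 CPM in SK-MEL-147, while the pigment cell genes MLANA, PMEL, TYR, DCT and TYRP1 reached at most 3.89 CPM in any sample of that line, and MLANA was at 0 in 3 of its 4 groups. Fibroblast markers (6 genes) summed to 15.6 to 22.8 CPM in untreated SK-MEL-147, 59.5 to 125 CPM with doxorubicin, 88.7 to 159 CPM with palbociclib and 6.78 to 23.3 CPM with INK128. The sums thus rose where most class I genes did with the first 2 drugs and overlapped the untreated samples with INK128, where the heavy chains were higher. LUM and COL1A1 alone carried these sums, and each of the other fibroblast genes reached at most 0.294 CPM in that line. In A549 the fibroblast markers summed to 4.42 to 18.3 CPM untreated, 18.6 to 23.3 CPM with doxorubicin, 12.5 to 22.8 CPM with palbociclib and 4.77 to 8.27 CPM with INK128. Melanocyte markers in A549 summed to 17.9 to 23.9 CPM untreated, 35.45 to 46.8 CPM with doxorubicin, 35.6 to 38.9 CPM with palbociclib and 17.3 to 34.9 CPM with INK128. MITF alone stood at 15.8 to 45.2 CPM there, and outside replicate 1 it made up nearly all of each sum. Endothelial markers (4 genes) summed to at most 0.801 CPM in A549 and 1.54 CPM in SK-MEL-147. The part of these lists in the result was not tested. Leukocyte markers (10 genes), which could bring in class I transcripts from other cells, summed to 0.529 to 2.99 CPM in SK-MEL-147 and 7.36 to 10.6 CPM in untreated A549, 12.7 to 40.3 CPM with doxorubicin, 11.5 to 25.5 CPM with palbociclib and 13.9 to 18.0 CPM with INK128. Replicate 1 was the highest with doxorubicin and palbociclib, where CD14 alone stood at 34.0 and 19.6 CPM. Of 4 leukocyte markers tested in A549 (CD14, CD68, LYZ and ITGAM), doxorubicin gave 3 calls, all higher, palbociclib 2, both higher, and INK128 none. Of all genes, 22.4%, 22.2% and 20.5% were called higher. CD14 and ITGAM made up most of the sums, also in untreated A549, at 3.12 to 6.86 and 3.46 to 4.04 CPM. The general leukocyte gene PTPRC reached at most 0.233 CPM in A549 and had too few counts to be tested. In each A549 group 4 or 5 of the 10 were at 0, CD3E and MS4A1 among them, and the part of these markers in the result was not tested. In bulk RNA, fewer cells that express a gene and less RNA per cell cannot be told apart.

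In untreated cells of both lines B2M was the most abundant member per length. Per kilobase of transcript, untreated A549 held 133 CPM of B2M, 46.0 of TAPBP, 40.1 of HLA-C, 26.1 of HLA-E, 18.6 of TAP1, 17.3 of HLA-B, 5.41 of TAP2, 1.83 of HLA-F and 0.451 of NLRC5. Untreated SK-MEL-147 held 285 CPM per kilobase of B2M, 69.2 of HLA-C, 59.1 of HLA-B, 37.0 of TAPBP, 17.6 of TAP2, 13.8 of TAP1, 5.67 of NLRC5 and 4.51 of HLA-F. HLA-E stood at 35.45 CPM per kilobase there. By these means TAP2 lay above TAP1 in the melanoma line and below it in the lung line. The order in the melanoma line did not hold in untreated sample 1, with TAP1 at 57.5 CPM and TAP2 at 47.4. It also depends on the transcript chosen, of 2497 bases for TAP2 and 2959 for TAP1, where all annotated exons cover 6390 and 4805 bases. HLA genes are alike in sequence and differ between people, and how reads with several matches were counted is not given in the sources used here, so levels of single HLA genes are less certain than their changes within a line. The annotated spans of HLA-B and HLA-C overlap, as do those of TAP1 with PSMB9 and of HLA-F with its antisense gene HLA-F-AS1.

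**Figure D1:**
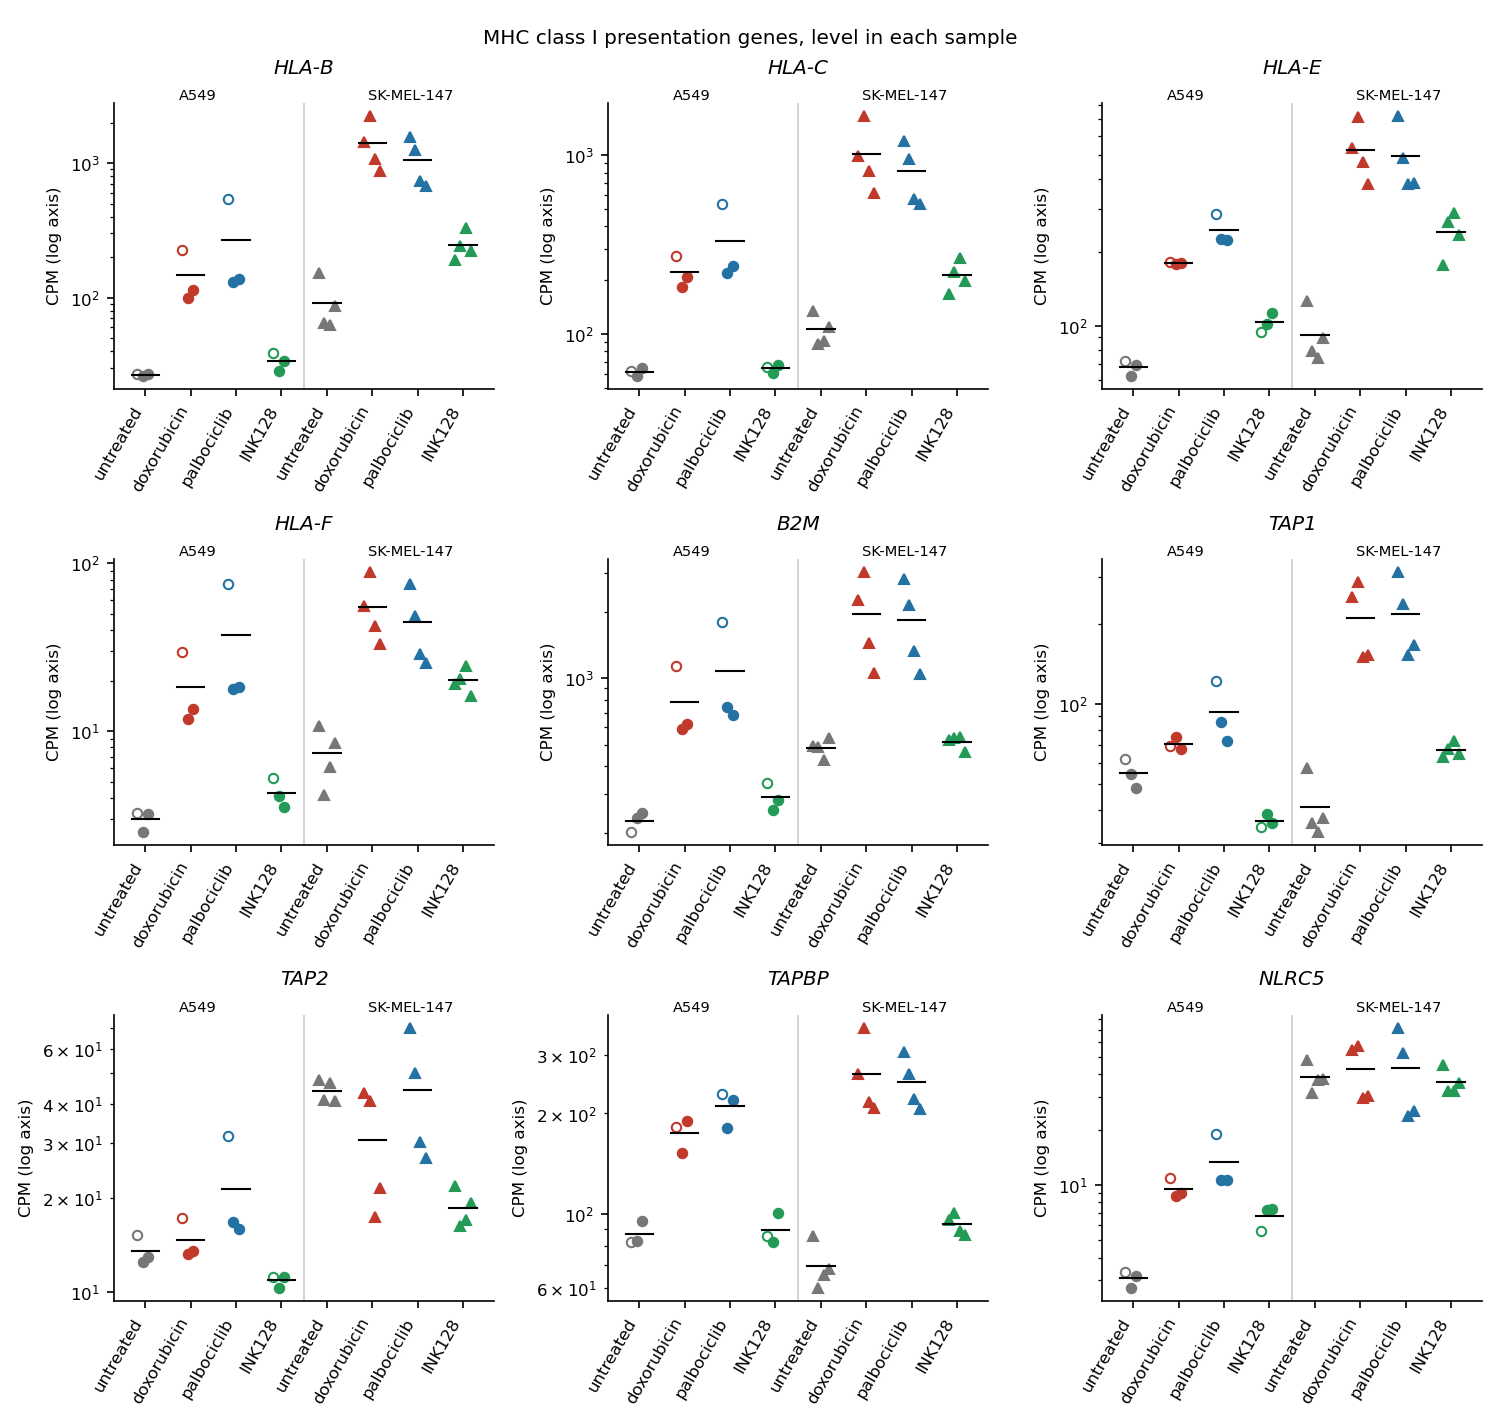
Level of each member in every sample, in CPM on a log axis that differs between panels, with A549 as circles, SK-MEL-147 as triangles and a line at each group's mean. Open circles are A549 replicate 1, which lay far above the other samples in HLA-B, HLA-F and B2M with doxorubicin and palbociclib, and NLRC5 and TAP2 in SK-MEL-147 are the panels without a rise.

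In SK-MEL-147, doxorubicin raised every member but TAP2 and NLRC5. With edgeR's quasi-likelihood test and Benjamini-Hochberg adjustment, 7 of 9 members were higher and 0 lower at an adjusted p under 0.05, where 30.9% of the 18516 genes tested were called higher and 28.9% lower. The median log2 change of the members was 2.36, against 0.02 over all genes. Palbociclib raised the same 7 members and lowered 0, with a median of 2.41, where 29.7% of genes were called higher and 28.7% lower, and these comparisons share their untreated samples.

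The heavy chains rose most. HLA-B (ENSG00000234745, chr6:31269491-31357188 on GRCh38) stood at 152, 65.2, 62.3 and 86.6 CPM in the 4 untreated samples, at 1435, 2250.2, 1081 and 875 CPM with doxorubicin and at 1563, 1242, 736 and 669.9 CPM with palbociclib. All 8 drug samples lay above all 4 untreated ones. Its log2 change was 3.94 ± 0.38 (SE, adjusted p = 1.74e-07) with doxorubicin and 3.53 ± 0.37 (adjusted p = 5.62e-07) with palbociclib. HLA-C (ENSG00000204525, chr6:31268749-31272130) went from 88.4 to 135 CPM in untreated samples to 612 to 1664 CPM with doxorubicin and 535 to 1194 CPM with palbociclib, log2 changes of 3.26 ± 0.32 and 2.93 ± 0.31. The chain read by natural killer cells, HLA-E (ENSG00000204592, chr6:30489467-30494205), went from 74.3 to 127 CPM to 379.7 to 714 and 379.3 to 724 CPM, log2 changes of 2.497 ± 0.25 and 2.42 ± 0.25. HLA-F (ENSG00000204642, chr6:29722775-29738528) stayed the lowest chain, at 4.18 to 10.7 CPM untreated, 33.0 to 89.1 CPM with doxorubicin and 25.5 to 75.4 CPM with palbociclib. For these 3 chains too, the groups did not overlap.

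The light chain rose less than the chains it pairs with. B2M (ENSG00000166710, chr15:44711487-44718877) stood at 495, 489, 426 and 535 CPM in untreated SK-MEL-147, at 2265, 3039, 1451 and 1060.2 CPM with doxorubicin and at 2805, 2155, 1332 and 1046 CPM with palbociclib. The samples numbered 1 and 2 were the high ones with both drugs, and none overlapped the untreated range. The log2 change was 2.00 ± 0.31 (adjusted p = 2.87e-05) with doxorubicin and 1.91 ± 0.31 (adjusted p = 4.7e-05) with palbociclib.

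The transporter subunits parted in SK-MEL-147. TAP1 (ENSG00000168394, chr6:32845209-32853978) stood at 57.5, 35.8, 33.0 and 37.3 CPM untreated, at 253, 287, 151 and 152 CPM with doxorubicin and at 315, 237, 153 and 167 CPM with palbociclib. It rose by 2.36 ± 0.26 and 2.41 ± 0.26 on the log2 scale (adjusted p = 6.71e-07 and 6.42e-07). Its partner TAP2 (ENSG00000204267, chr6:32821833-32838780) stood at 47.4, 41.1, 46.6 and 40.8 CPM untreated, at 43.1, 40.8, 17.4 and 21.5 CPM with doxorubicin and at 69.9, 50.1, 30.1 and 26.7 CPM with palbociclib. Drug and untreated samples overlapped, with samples 3 and 4 below the untreated range under both drugs. TAP2 did not pass, at log2 changes of -0.53 ± 0.29 (adjusted p = 0.128) and 0.01 ± 0.29 (adjusted p = 0.987). The log2 ratio of TAP1 to TAP2 counts was -0.14 ± 0.32 (SD, n = 4) untreated, 2.83 ± 0.23 with doxorubicin, 2.35 ± 0.21 with palbociclib and 1.86 ± 0.27 under INK128. TAPBP (ENSG00000231925, chr6:33299694-33314387), which bridges chains and transporter, rose from 59.9 to 85.7 CPM to 208 to 362 CPM with doxorubicin and 206 to 306 CPM with palbociclib, log2 changes of 1.90 ± 0.18 and 1.83 ± 0.18.

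NLRC5 (ENSG00000140853, chr16:56989485-57083531), the class I transactivator, did not follow its target genes in the melanoma line. It stood at 48.0, 31.6, 37.2 and 38.0 CPM untreated, at 54.2, 57.5, 29.9 and 30.5 CPM with doxorubicin and at 72.1, 52.5, 23.7 and 25.3 CPM with palbociclib. Samples 1 and 2 lay above the untreated range and samples 3 and 4 below it, under both drugs. The log2 changes were 0.14 ± 0.30 (adjusted p = 0.701) and 0.16 ± 0.31 (adjusted p = 0.666), which do not show that NLRC5 was unchanged.

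**Figure D2:**
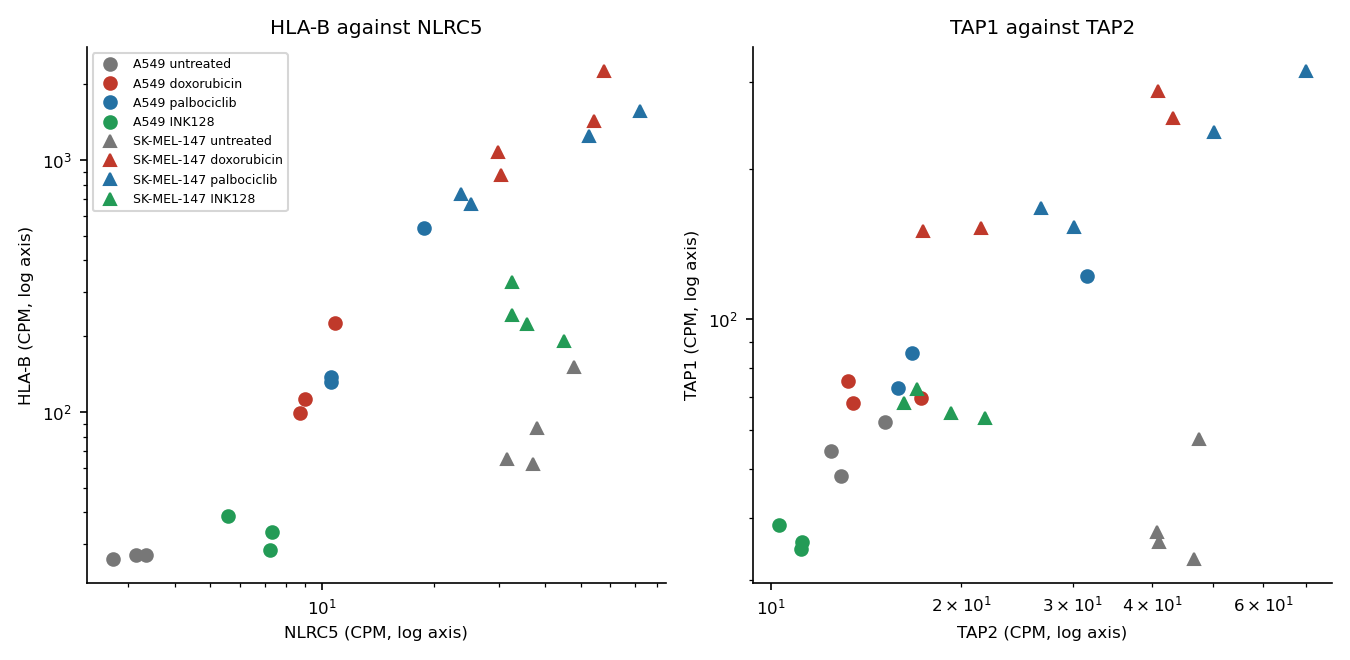
HLA-B against NLRC5 (left) and TAP1 against TAP2 (right), in CPM on log axes, with 1 point for each of 28 samples. Untreated SK-MEL-147 samples held 31.6 to 48.0 CPM of NLRC5 at 62.3 to 152 CPM of HLA-B, and its doxorubicin and palbociclib samples 23.7 to 72.1 CPM of NLRC5 at 669.9 to 2250.2 CPM of HLA-B. The untreated samples of that line held 40.8 to 47.4 CPM of TAP2 beside 33.0 to 57.5 CPM of TAP1.

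In A549, doxorubicin raised 7 of 9 members, and palbociclib 8 of 9. At the same threshold, 22.4% (doxorubicin) and 22.2% (palbociclib) of 19550 genes were called higher and 20.9% and 21.1% lower, and 0 members were lower. The members' median log2 changes were 1.5 and 1.99, against 0.00 and 0.02 over all genes. With replicate 1 left out of every group, 8 members were higher with each drug, where 28.6% (doxorubicin) and 29.2% (palbociclib) of genes were, and the medians were 1.35 and 1.68. Those fits have 2 samples a group that may not be independent, so their p-values can be too small.

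HLA-B again moved far, by a size that depended on replicate 1. It stood at 27.1, 26.1 and 27.04 CPM in untreated A549, at 226, 99.6 and 113 CPM with doxorubicin and at 539, 132 and 138 CPM with palbociclib. Replicate 1 was the highest with both drugs, and every drug sample lay above the untreated ones. The log2 change was 2.32 ± 0.50 (adjusted p = 0.00313) with doxorubicin and 3.20 ± 0.52 (adjusted p = 0.000495) with palbociclib. Without replicate 1 it was 1.90 ± 0.11 (adjusted p = 2.89e-06) and 2.24 ± 0.11 (adjusted p = 1.01e-06), and leaving out replicate 1 of the palbociclib group alone gave 2.23. HLA-F, at 2.505 to 3.25 CPM untreated, stood at 29.6, 11.8 and 13.6 CPM with doxorubicin and at 75.6, 17.7 and 18.4 CPM with palbociclib. Its log2 changes of 2.48 ± 0.56 and 3.51 ± 0.57 were 2.07 ± 0.16 and 2.58 ± 0.16 without replicate 1, and 2.49 with palbociclib where only that group's replicate 1 was left out.

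HLA-E, the chain read by NKG2 receptors, rose in A549 as well. It stood at 71.8, 62.5 and 69.3 CPM untreated, at 182, 179 and 180.4 CPM with doxorubicin and at 287, 227 and 224 CPM with palbociclib. These are log2 changes of 1.28 ± 0.12 (adjusted p = 1.73e-05) and 1.73 ± 0.13 (adjusted p = 2.32e-06), and of 1.35 ± 0.09 and 1.68 ± 0.09 without replicate 1. HLA-C, at 58.4 to 64.4 CPM untreated, reached 183 to 274 CPM and 219.6 to 532 CPM, log2 changes of 1.72 ± 0.29 and 2.29 ± 0.29, or 1.58 ± 0.11 and 1.80 ± 0.11 without replicate 1. B2M stood at 202, 233 and 247 CPM untreated, at 1134, 590.1 and 625 CPM with doxorubicin and at 1803, 741 and 679 CPM with palbociclib, with replicate 1 again the highest. Its log2 changes were 1.65 ± 0.36 (adjusted p = 0.00314) and 2.11 ± 0.36 (adjusted p = 0.000723), or 1.24 ± 0.10 and 1.47 ± 0.10 without replicate 1.

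The transporter moved little in A549. TAP1 stood at 62.2, 54.5 and 48.5 CPM untreated, at 69.5, 75.1 and 68.0 CPM with doxorubicin and at 122, 85.5 and 72.7 CPM with palbociclib. With palbociclib it rose by 0.63 ± 0.17 on the log2 scale (adjusted p = 0.0101), or 0.52 ± 0.11 (adjusted p = 0.00265) without replicate 1. The doxorubicin change of 0.23 ± 0.17 did not pass (adjusted p = 0.282), and without replicate 1 it did, at 0.38 ± 0.11 (adjusted p = 0.0142). TAP2 stood at 15.2, 12.5 and 12.9 CPM untreated, at 17.3, 13.3 and 13.5 CPM with doxorubicin and at 31.5, 16.7 and 15.9 CPM with palbociclib. Its changes of -0.01 ± 0.23 (adjusted p = 0.967) and 0.53 ± 0.23 (adjusted p = 0.081) did not pass. With replicates paired by number as a block, the palbociclib change passed, at 0.49 (adjusted p = 0.0264), as it did without palbociclib replicate 2 (0.68, adjusted p = 0.0451) or 3 (0.71, adjusted p = 0.0345). TAPBP rose from 82.5 to 95.4 CPM to 152 to 190.2 CPM and 181 to 229.6 CPM, log2 changes of 0.88 ± 0.14 and 1.15 ± 0.14, or 0.84 ± 0.16 and 1.07 ± 0.16 without replicate 1.

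In the lung line NLRC5 did rise with both drugs, from a low level. It stood at 3.35, 2.73 and 3.15 CPM untreated, at 10.9, 8.72 and 8.98 CPM with doxorubicin and at 18.8, 10.6 and 10.6 CPM with palbociclib. No drug sample overlapped the untreated ones. The log2 changes were 1.5005 ± 0.23 (adjusted p = 0.000392) and 1.99 ± 0.24 (adjusted p = 5.82e-05), or 1.503 ± 0.13 and 1.76 ± 0.13 without replicate 1. Even so, its highest A549 sample lay below the lowest of the 16 SK-MEL-147 samples, which was at 23.7 CPM.

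**Figure D3:**
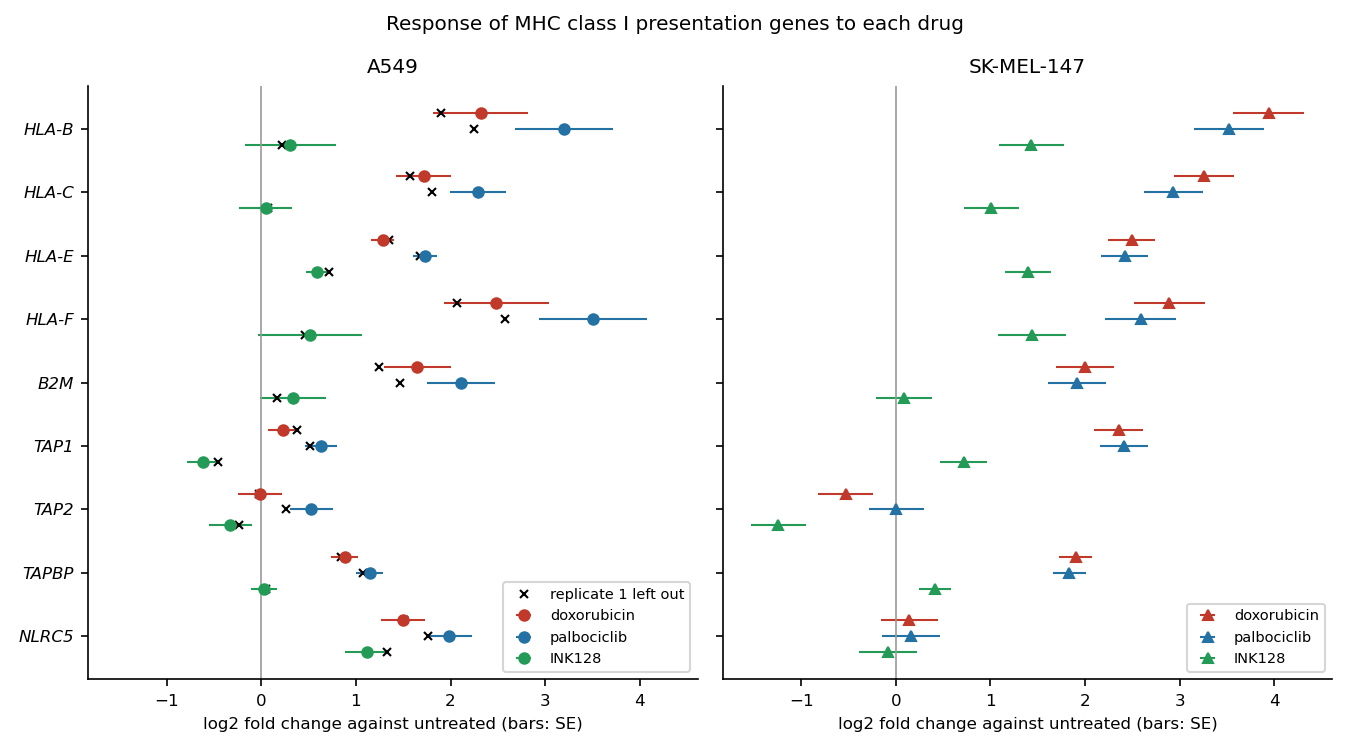
Log2 fold change of each member against untreated cells of the same line, with its SE as bars, for 3 drugs in A549 (left, n = 3 a group) and SK-MEL-147 (right, n = 4). Crosses give the A549 change with replicate 1 left out. With doxorubicin and palbociclib TAP1 lies at 0.23 and 0.63 in A549 and at 2.36 and 2.41 in SK-MEL-147, while NLRC5 lies at 1.5005 and 1.99 in A549 and near 0 in SK-MEL-147.

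INK128 gave calls for 7 members in SK-MEL-147 and 3 in A549. In SK-MEL-147, 6 members were higher and 1 lower, where 29.8% of genes were called higher and 28.9% lower, and the members' median log2 change was 0.72 against 0.03 over all genes. The 4 heavy chains rose. HLA-B reached 192, 243, 327 and 223 CPM, a log2 change of 1.43 ± 0.34 (adjusted p = 0.00194). HLA-C reached 167 to 268 CPM (1.011 ± 0.29, adjusted p = 0.00729), HLA-E 178 to 289 CPM (1.40 ± 0.24, adjusted p = 0.000123) and HLA-F 16.2 to 24.6 CPM (1.44 ± 0.36, adjusted p = 0.00277). None of these ranges overlapped the untreated samples. B2M did not rise with them: it stood at 527, 536, 543 and 464 CPM, and its change of 0.09 ± 0.29 did not pass (adjusted p = 0.807).

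TAP2 fell with INK128 in SK-MEL-147. Its samples at 21.8, 16.2, 17.0 and 19.3 CPM all lay below the untreated range, a log2 change of -1.24 ± 0.30 (adjusted p = 0.0019). TAP1, at 63.3, 68.0, 72.5 and 65.0 CPM, was higher by 0.72 ± 0.25 (adjusted p = 0.0192). That call was lost without untreated replicate 2, 3 or 4 (log2 changes of 0.67, 0.62 and 0.67, adjusted p = 0.0529, 0.0625 and 0.0514). The call of TAPBP, at 86.2 to 101 CPM and a change of 0.42 ± 0.17 (adjusted p = 0.0463), was lost without untreated replicate 2, 3 or 4 or INK128 replicate 1, 2 or 3, at changes between 0.36 and 0.45 (adjusted p = 0.0544 to 0.116). NLRC5 stood at 44.9, 32.7, 32.6 and 35.8 CPM, with a change of -0.08 ± 0.30 (adjusted p = 0.834).

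In A549, INK128 raised HLA-E and NLRC5 and lowered TAP1. That is 2 members higher and 1 lower, where 20.5% of genes were called higher and 19.7% lower, so that the share of members called lay near the share of all genes, and the members' median was 0.31. HLA-E stood at 94.6, 102 and 113 CPM, a log2 change of 0.59 ± 0.12 (adjusted p = 0.00319). NLRC5 stood at 5.57, 7.24 and 7.35 CPM, a change of 1.12 ± 0.23 (adjusted p = 0.00321). TAP1 stood at 34.6, 38.7 and 35.7 CPM, a change of -0.62 ± 0.17 (adjusted p = 0.0134). Without replicate 1 the changes were 0.72, 1.33 and -0.46, all called, and HLA-F passed as well, at 0.46 ± 0.17 (adjusted p = 0.0445), where 27.8% of genes were called higher and 25.9% lower. HLA-B, at 38.8, 28.3 and 33.6 CPM, lay above the untreated samples in each case without passing (0.31 ± 0.48, adjusted p = 0.637). HLA-C and TAPBP had changes of 0.05 ± 0.28 and 0.03 ± 0.14.

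The heavy chains did not keep their proportions. In SK-MEL-147, HLA-B made up 29.8% ± 4.16 (SD, n = 4) of the summed counts of the 4 chains untreated, 46.6% ± 1.37 with doxorubicin, 43.5% ± 1.68 with palbociclib and 34.0% ± 1.63 with INK128. HLA-E made up 31.3% ± 1.54 untreated, 18.05% ± 2.17 with doxorubicin, 21.0% ± 2.53 with palbociclib and 33.6% ± 1.93 with INK128. The log2 ratio of B2M counts to the chains' sum was 0.75 ± 0.36 untreated, -0.65 ± 0.18 with doxorubicin, -0.42 ± 0.14 with palbociclib and -0.46 ± 0.28 with INK128, so that B2M fell behind its partners under all 3 drugs and no drug sample overlapped the untreated ones. In A549 the untreated samples, at 0.30 to 0.64, overlapped those of each drug, while palbociclib (0.13 to 0.33) lay below INK128 (0.37 to 0.72). HLA-B made up 16.8% ± 0.583 of the sum in untreated A549, 31.8%, 21.0% and 22.0% with doxorubicin and 37.6%, 22.1% and 22.3% with palbociclib, with replicate 1 the highest. HLA-E made up 42.6% ± 0.996 untreated and 46.4%, 52.5% and 52.0% with INK128. These shares were not tested, and they count reads, which longer transcripts collect more of.

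**Figure D4:**
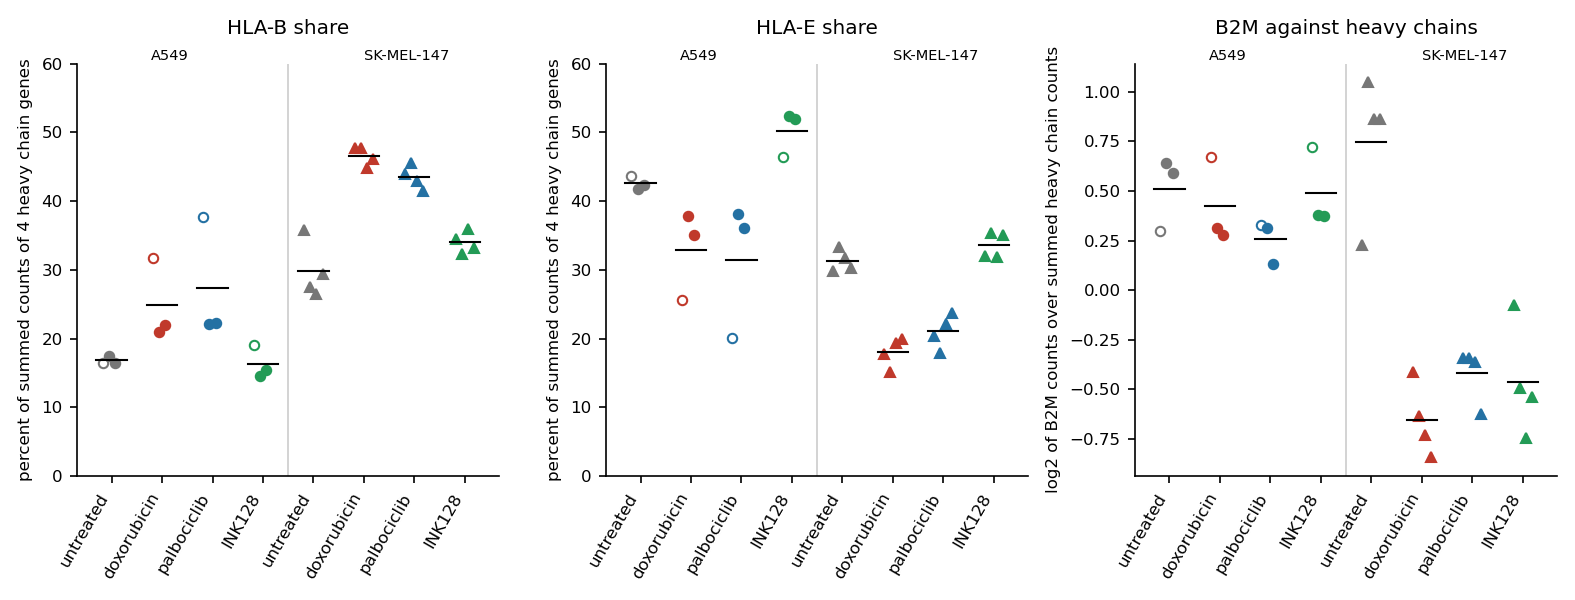
Share of HLA-B (left) and HLA-E (middle) in the summed counts of HLA-B, HLA-C, HLA-E and HLA-F, in percent, and log2 ratio of B2M counts to that sum (right), per sample with a line at each group's mean. Open circles are A549 replicate 1. The B2M ratio is below 0 in all 12 drug samples of SK-MEL-147 and above 0 in its untreated samples and in all A549 samples.

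Set against each other, the senescence drugs gave no called difference in any member. For palbociclib against doxorubicin in A549, edgeR called 0 members and 0% of genes, and DESeq2 also called 0 members. At an unadjusted p under 0.05, 3 members were higher with palbociclib in A549: HLA-E by 0.45 ± 0.12, TAP1 by 0.40 ± 0.17 and TAP2 by 0.54 ± 0.23 on the log2 scale, where 4.45% of genes had such a p. Set side by side by replicate number, all 9 members were higher with palbociclib in each of the 3 A549 pairs, as were 21.2% of genes, and the members are not independent of each other. With the replicate block 0 members were called there, at log2 differences of 0.27 to 0.87 (adjusted p = 0.259 to 0.705). Without replicate 1, 0 members were called, where 0.298% of genes were. In SK-MEL-147 both tools called 0 members, edgeR called 0.0594% of genes (11 of 18516) and DESeq2 430 of 17894, and 0 members had an unadjusted p under 0.05, where 12.4% of genes did. With the replicate block 0 members were called in that line either, where 341 of 18516 genes were. The differences there ran from -0.41 ± 0.33 (HLA-B) to 0.53 ± 0.29 (TAP2). A p that misses the threshold does not show that the drugs act alike.

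INK128 left the set lower than either senescence drug. Against doxorubicin, 7 members were lower in A549, where 19.7% of genes were, and 7 were lower in SK-MEL-147, where 24% were. The members not called were TAP2 and NLRC5 in both lines. HLA-B differed by -2.01 ± 0.50 (adjusted p = 0.00744) in A549, or -1.68 ± 0.11 without replicate 1, and by -2.51 ± 0.35 (adjusted p = 3.05e-05) in SK-MEL-147. TAP2 in SK-MEL-147 was at -0.71 ± 0.29 (adjusted p = 0.0542), and it passed with the replicate block (-0.63, adjusted p = 0.0264), with no low-count filter (-0.75, adjusted p = 0.0101), with DESeq2 (-0.73, adjusted p = 0.0368), in 1 fit of all 8 groups (-0.72, adjusted p = 0.0364) and without doxorubicin replicate 3 (-0.91, adjusted p = 0.0154) or 4 (-0.86, adjusted p = 0.0322). Without A549 replicate 1, 7 members were again lower in that line, where 27.5% of genes were.

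Against palbociclib, all 9 members were lower with INK128 in A549, where 20.5% of genes were, and 8 in SK-MEL-147, where 25.8% were. The exception was NLRC5, at -0.24 ± 0.31 (adjusted p = 0.522). In A549 HLA-B differed by -2.89 ± 0.51 and HLA-F by -2.998 ± 0.56. Those values were -2.02 ± 0.11 and -2.12 ± 0.16 without replicate 1, with all 9 members again lower where 28.5% of genes were, and -1.92 and -1.99 without replicate 1 of palbociclib alone. HLA-F in SK-MEL-147, at -1.15 ± 0.35 (adjusted p = 0.0117), lost its call without palbociclib replicate 1 (-0.78, adjusted p = 0.0586).

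Untreated, the melanoma line held more of most members than the lung line. In a fit over all 8 groups, 6 members were higher in SK-MEL-147 and 0 lower, where 33.3% of 21761 genes were called higher and 33.4% lower. NLRC5 differed by 3.66 ± 0.36 on the log2 scale (adjusted p = 2.15e-09), HLA-B by 1.77 ± 0.45 (adjusted p = 0.00132), TAP2 by 1.70 ± 0.31 (adjusted p = 3.37e-05), HLA-F by 1.31 ± 0.49 (adjusted p = 0.0222), B2M by 1.10 ± 0.35 (adjusted p = 0.00811) and HLA-C by 0.79 ± 0.32 (adjusted p = 0.0318). The call of HLA-C was lost without any 1 of untreated A549 replicates 1, 2 or 3 or SK-MEL-147 replicates 1 or 4 (0.57 to 0.82, adjusted p = 0.0619 to 0.137), and that of HLA-F without A549 replicate 2 (1.19) or SK-MEL-147 replicate 1 (0.99) or 4 (1.18). TAP1 and TAPBP, at -0.43 ± 0.24 and -0.32 ± 0.17, were called lower without SK-MEL-147 replicate 1, at -0.72 (adjusted p = 0.0107) and -0.52 (adjusted p = 0.0127). With A549 replicate 1 left out of every group, the same 6 members were called, NLRC5 at 3.71. The count depended on scaling: with DESeq2's size factors, and with DESeq2's own test, 5 members were higher and 1 lower. There HLA-C lost its call (adjusted p = 0.0568 and 0.0544) and TAPBP was called lower, at -0.41 in both (adjusted p = 0.0382 and 0.0469). By library size alone 7 were higher and 0 lower, HLA-E among them (0.55, adjusted p = 0.0399).

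Some members also changed differently between the lines, by a test of the difference between the lines' changes. For doxorubicin the change was larger in SK-MEL-147 for TAP1 by 2.00 ± 0.34 (adjusted p = 0.000149), HLA-C by 1.42 ± 0.44 (adjusted p = 0.0238), HLA-E by 1.09 ± 0.31 (adjusted p = 0.0133) and TAPBP by 0.90 ± 0.24 (adjusted p = 0.00771), and smaller for NLRC5 by 1.48 ± 0.44 (log2 difference -1.48, adjusted p = 0.0189). These are 5 members of 9, where 19.8% of genes differed and the median difference over all genes was -0.10. For palbociclib, of which the lines received unlike doses, TAP1 differed by 1.65 ± 0.34 (adjusted p = 0.0011) and NLRC5 by -1.95 ± 0.44 (adjusted p = 0.00269), 2 members where 19.2% of genes differed. For INK128, also at unlike doses, TAP1 alone differed, by 1.32 ± 0.34 (adjusted p = 0.0114), where 11.9% of genes did. With palbociclib and INK128 the share of members that differed thus lay near the share of all genes. HLA-B and B2M were not called to differ between the lines with any drug.

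Left-out libraries moved several of these differences. Without A549 replicate 1, TAP1 still differed with doxorubicin (1.86, adjusted p = 0.00142) and palbociclib (1.77, adjusted p = 0.00257) and lost its call with INK128 (1.14, adjusted p = 0.0556). NLRC5 still differed with doxorubicin (-1.48, adjusted p = 0.039) and palbociclib (-1.715, adjusted p = 0.0188), HLA-E lost its doxorubicin call (1.03, adjusted p = 0.0521), and HLA-B gained one (1.92, adjusted p = 0.0119). The doxorubicin difference of HLA-B was also called without doxorubicin-treated A549 replicate 1 (1.96) and without untreated SK-MEL-147 replicate 1 (2.06). The call of HLA-C was lost without doxorubicin-treated A549 replicate 2 (1.30) or 3 (1.38) or SK-MEL-147 replicate 2 (1.08). The call of NLRC5 with doxorubicin was lost without untreated A549 replicate 2 (-1.39) or untreated SK-MEL-147 replicate 1 (-1.16) or 4 (-1.32). It was also lost with library 2-2 left out of every A549 group (-1.29, adjusted p = 0.0524). Without untreated SK-MEL-147 replicate 1, HLA-E was called with palbociclib (0.95) and INK128 (1.04), and TAPBP with palbociclib (0.87).

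Ordered by mean level over the 8 groups, HLA-B ran from untreated A549 (26.8 CPM) through INK128 in A549 (33.5), untreated SK-MEL-147 (91.4), doxorubicin in A549 (146), INK128 in SK-MEL-147 (246) and palbociclib in A549 (269.7) to palbociclib (1053) and doxorubicin (1410) in SK-MEL-147. Neighbours from untreated SK-MEL-147 to palbociclib in A549 overlapped, as did the 2 highest groups. For TAP2 the order ran from INK128 in A549 (10.9 CPM) through untreated A549 (13.5), doxorubicin in A549 (14.7), INK128 in SK-MEL-147 (18.6), palbociclib in A549 (21.4) and doxorubicin in SK-MEL-147 (30.7) to untreated (44.0) and palbociclib-treated (44.2) SK-MEL-147, and every pair of neighbours but the lowest overlapped. NLRC5 split by line: its 4 A549 groups had means of 3.08 to 13.3 CPM and its 4 SK-MEL-147 groups 36.5 to 43.4 CPM, and the latter all overlapped.

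Of 7 genes that supply peptides, the immunoproteasome subunits PSMB8, PSMB9 and PSMB10, the proteasome activators PSME1 and PSME2 and the trimming peptidases ERAP1 and ERAP2, 7 were higher with doxorubicin and 6 with palbociclib in SK-MEL-147. Of all genes, 30.9% (doxorubicin) and 29.7% (palbociclib) were called higher there. PSMB9 rose by 1.47 ± 0.43 and 1.53 ± 0.44 on the log2 scale, though its span overlaps TAP1 and the strand setting of the counting is not given. INK128 raised none of the 7 genes and lowered PSMB8, by -0.54 ± 0.22, where 29.8% of genes were called higher and 28.9% lower. In A549, 4 of 7 were higher with each senescence drug, led by PSMB10 with doxorubicin (1.68 ± 0.27, or 1.38 ± 0.21 without replicate 1) and PSMB8 with palbociclib (1.89 ± 0.28, or 1.41 ± 0.09), and without replicate 1 the counts were 6 and 5, with PSMB9 lower with palbociclib (-0.55 ± 0.18). Of all genes in that line, 22.4% and 22.2% were called higher with these drugs, or 28.6% and 29.2% without replicate 1. INK128 raised ERAP1 and ERAP2 in A549, where 20.5% of genes were called higher. Without replicate 1 it raised 3 and lowered 3, where 27.8% of genes were called higher and 25.9% lower. Of the subunits that immunoproteasomes replace, PSMB5, PSMB6 and PSMB7, SK-MEL-147 had 2 lower with doxorubicin, 2 with palbociclib and 3 with INK128, and A549 had 1, 1 and 2 (3, 3 and 3 without replicate 1). Over all genes, 28.9%, 28.7% and 28.9% were called lower in SK-MEL-147, and 20.9%, 21.1% and 19.7% in A549. Without A549 replicate 1, 54%, 54.1% and 53.7% of genes were called in either direction.

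Among 4 loading chaperones, TAPBPL, a tapasin relative that edits peptides, was higher in all 6 comparisons of a drug with untreated cells, by 1.66 ± 0.20, 1.81 ± 0.20 and 0.58 ± 0.19 in A549 (doxorubicin, palbociclib, INK128) and by 1.44 ± 0.29, 1.25 ± 0.29 and 1.18 ± 0.28 in SK-MEL-147. It stayed called without A549 replicate 1. Of 12 regulators of class I genes, 6 were higher and 4 lower in SK-MEL-147 under either senescence drug. Of all genes, 30.9% (doxorubicin) and 29.7% (palbociclib) were called higher there, and 28.9% and 28.7% lower. The interferon signal carrier STAT2 led with 2.42 ± 0.27 and 2.12 ± 0.27, beside IRF9, its DNA-binding partner, with doxorubicin (2.10 ± 0.39). The lower ones were led by RFXAP (-0.82 ± 0.22) and NFYB (-0.76 ± 0.15) with doxorubicin, both subunits of complexes that NLRC5 works with. In A549, 4 were higher and 2 lower with doxorubicin and 5 and 2 with palbociclib, or 5 and 3, and 6 and 3, without replicate 1. Of all genes in that line, 22.4% and 22.2% were called higher and 20.9% and 21.1% lower. Without replicate 1, 28.6% and 29.2% were called higher, and 54% and 54.1% in either direction. The counts of regulators called lower thus lay near the share of all genes. STAT2 rose there by 1.38 ± 0.22 and 1.92 ± 0.23 (1.41 and 1.64 without replicate 1), while NFYC was lower, at -0.56 ± 0.13 and -0.55 ± 0.13 (-0.59 and -0.72). With INK128, 3 were higher and 1 lower in A549 (4 and 2 without replicate 1) and 4 higher and 3 lower in SK-MEL-147. The shares over all genes were 20.5% and 19.7% for the lung line, or 27.8% and 25.9% without replicate 1. For the melanoma line they were 29.8% and 28.9%. The X-box factor RFX5 was lower with INK128 in A549 (-1.13 ± 0.10) and higher in SK-MEL-147 (0.40 ± 0.12), and that difference between the lines was called.

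Of 7 interferon receptor and kinase genes, IFNGR1, a chain of the interferon gamma receptor, was higher in all 6 drug comparisons. In A549 it went from 52.8 ± 9.66 CPM (SD, n = 3) to 310 ± 54.8 with doxorubicin, 326 ± 62.1 with palbociclib and 136 ± 30.4 with INK128, and in SK-MEL-147 from 13.96 ± 0.315 CPM (n = 4) to 29.8 ± 2.59, 33.2 ± 3.96 and 22.1 ± 1.29. Its change was larger in A549 for each drug (line differences of -1.46, -1.38 and -0.71, all called). Without A549 replicate 1 the changes in that line were 2.25 ± 0.24, 2.31 ± 0.25 and 1.30 ± 0.24, all called. JAK2, a kinase of that receptor, was called higher under both senescence drugs in A549, and under INK128 in SK-MEL-147. Without replicate 1 it was also called higher with INK128 in A549 (0.32 ± 0.12, adjusted p = 0.0443). Most of the interferon genes read were scarce, and interferon alpha genes were not among those read. Of 7 ligands, IFNE alone had enough counts to be tested, and IFNB1 reached at most 0.117 CPM in any sample. IFNE rose with INK128 in both lines, to 5.79 ± 1.92 CPM from 1.40 ± 0.864 in A549 and to 0.712 ± 0.752 from 0.238 ± 0.121 in SK-MEL-147, where replicate 1 was at 1.84 and the other INK128 samples at 0.2499 to 0.426 CPM.

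**Figure D5:**
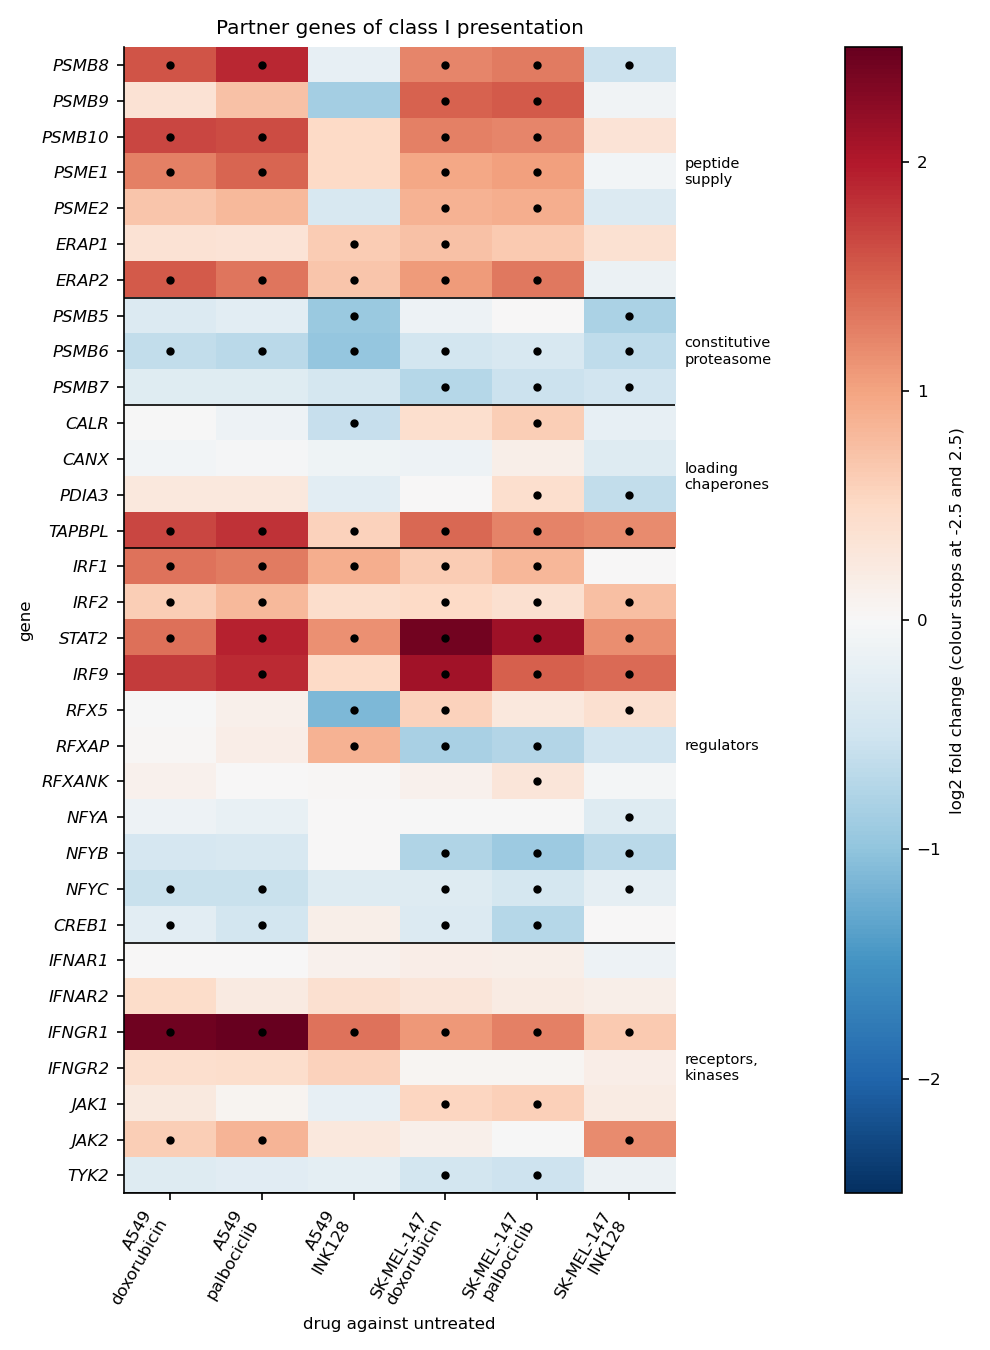
Log2 fold change against untreated cells of most partner genes of class I presentation, grouped by list, for 3 drugs in each line, with red for higher, blue for lower and a dot where the adjusted p was under 0.05. TAPBPL, STAT2 and IFNGR1 carry a dot in all 6 columns, and the peptide supply genes are red with doxorubicin and palbociclib.

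To name the genes most like a member, levels (log2 CPM, centred within each line) were correlated over all 28 samples with each of 9529 protein-coding genes at a mean of at least 5 CPM in both lines. B2M was most like the ubiquitin-conjugating enzyme gene UBE2L6 (Pearson r = 0.992), ISG15 (0.985), IFI6 (0.978), PARP9 (0.977) and IFI35 (0.977). For HLA-B the closest genes outside the HLA family were ITM2B (0.964), CCPG1 (0.96) and SHFL (0.954). NLRC5 had weaker likenesses, led by CASP4 (0.872), IFI16 (0.843) and SP100 (0.841), and within the 16 SK-MEL-147 samples these stood at 0.682, 0.747 and 0.628. The samples share treatments, lines and replicate numbers, so that these values describe the pattern and are not tests.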

How the data were processed

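The deposited file held whole-number counts of reads per gene, which the authors made with STAR 2.7.10a on GRCh38.p13 and featureCounts, per the submitters' processing notes. Libraries were made with a stranded kit, per the labels' protocols, and annotation release and strand setting are not given in the sources used here. Members and lists were chosen with earlier results of these data known. Symbols came from a gene name table (60370 of 60728 IDs), positions from GENCODE 29.

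Tests used edgeR 4.0.16, run under R 4.3.3 (TMM, filterByExpr by group, 2-sided quasi-likelihood tests over the 4 groups of a line, or all 8 groups between lines). Genes were called at a Benjamini-Hochberg adjusted p under 0.05 over all genes tested, and the method was tested on simulated data. SE is the log2 fold change over the root of F. CPM use TMM totals over 28 samples. All members were named, and of each list at most the 2 largest called changes per direction and comparison. Exceptions, chosen after their values were seen, are JAK2, ERAP1, and the genes named to say which of a small count moved.

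Whether replicates come from separate cultures is not given in the labels, so p-values measure the spread between these samples. Same-numbered samples deviated together for every number (correlations from 0.118 to 0.849) in all A549 comparisons. In SK-MEL-147 they also did so for INK128 against untreated (0.187 to 0.265), palbociclib against doxorubicin and INK128 against doxorubicin. In the other 3 comparisons of that line the correlations were positive but fell lower for some numbers. They ran from 0.0202 to 0.258 (doxorubicin against untreated), 0.0717 to 0.328 (palbociclib against untreated) and 0.0306 to 0.448 (INK128 against palbociclib). DESeq2 1.42.0, other scalings, no low-count filter, left-out libraries and a replicate block were alternatives. Figures used matplotlib 3.10.9. Other HLA genes and some genes of the lists are not reported here.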

Additional observations from a re-analysis of the deposited data

Results flagged for a closer look

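Between the lines, 8 of 27 tests of a member's response found a difference in log2 change (SK-MEL-147 minus A549) with an adjusted p under 0.05 in edgeR's test. With doxorubicin these were HLA-C at 1.42 (adjusted p = 0.0238), HLA-E at 1.09 (0.0133 adjusted), TAP1 at 2.00 (0.000149 adjusted), TAPBP at 0.90 (0.00771 adjusted) and NLRC5 at -1.48 (0.0189 adjusted). With palbociclib they were TAP1 at 1.65 (adjusted p = 0.0011) and NLRC5 at -1.95 (0.00269 adjusted), and with INK128 TAP1 at 1.32 (0.0114 adjusted). Of all genes, 19.8% (doxorubicin), 19.2% (palbociclib) and 11.9% (INK128) differed between the lines. The shares of members with palbociclib and INK128 lay near these. In every drug comparison TAP1 rose more in SK-MEL-147, and with INK128 its direction differed, with all 3 A549 samples below the untreated ones and all 4 SK-MEL-147 samples above theirs. NLRC5 rose in 6 of 6 A549 samples given doxorubicin or palbociclib, and in SK-MEL-147 4 of those 8 samples lay above the untreated range and 4 below it. Doses of palbociclib and INK128 differed between the lines, so that line and dose cannot be told apart there. None of 36 groups of 4 SK-MEL-147 samples held a member's value that Dixon's test set apart from the other 3. With 4 values that test can miss a sample that stands apart, so it does not show that none did. Untreated SK-MEL-147 sample 1 was the highest of its group for every member but B2M. It held TAP1 at 57.5 CPM against 33.0 to 37.3, and HLA-B at 152 CPM against 62.3 to 86.6. Several calls changed without it, as given above. Groups of 3 are too small for Dixon's test.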

How the results depend on the processing

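Over 144 gene results and 2529 alternatives, 2402 kept direction and call, 34 lost a call, 40 gained one and 53 changed sign. Of 84 called results, 74 were the same in every alternative and 0 changed sign. Member counts stayed within 1.5 times except for line differences. With INK128 (1 member) the count was 2 with no low-count filter, 4 with the replicate block, 2 with A549 libraries 2 and 2-2 apart and 0 with A549 replicate 1 left out, and 1 to 2 with single replicates left out. With palbociclib (2) it was 2 to 4 with single replicates left out, 4 without untreated SK-MEL-147 replicate 1. The replicate block also gave TAP2 with doxorubicin in SK-MEL-147 (-0.63, adjusted p = 0.0214), where deviations of same-numbered samples correlated at 0.0202 to 0.258. It also gave TAP1 and TAPBP between untreated lines (-0.45 and -0.31), and line differences of HLA-B with doxorubicin (1.63), TAPBP with palbociclib (0.55) and, with INK128, HLA-E (0.82), TAP2 (-0.95) and NLRC5 (-1.25). It changed no other call beyond those in the report. TAP1 with INK128 in A549 lost its call over all 8 groups (-0.60, adjusted p = 0.067), as did TAPBP with INK128 in SK-MEL-147 with DESeq2's size factors (0.41), no filter (0.38) and DESeq2 (0.40). Every sign change fell on an uncalled value. TAP2 with doxorubicin in A549 was 0.12 over all groups, 0.012 with libraries apart and 0.10 without 2-2. For INK128 in A549, HLA-C was -0.013 with no filter and -0.036 without 2-2, and TAPBP -0.034 with no filter and -0.0074 with DESeq2. TAP2 with palbociclib in SK-MEL-147 was -0.0041 by library size alone, -0.0097 with no filter and -0.10 with the block. NLRC5 for palbociclib against doxorubicin there was -0.040 with the block, and the palbociclib line difference of B2M 0.33 without A549 replicate 1. The cause was not tested.
With single replicates left out, the uncalled values that changed sign ran as follows for doxorubicin in A549 (TAP2 -0.12 to 0.075), INK128 in A549 (HLA-C -0.013 to 0.085, TAPBP -0.075 to 0.089), palbociclib against doxorubicin in A549 (HLA-B -0.13 to 1.36, HLA-F -0.024 to 1.57, B2M -0.15 to 0.84), doxorubicin in SK-MEL-147 (NLRC5 -0.0072 to 0.30), palbociclib in SK-MEL-147 (TAP2 -0.29 to 0.19, NLRC5 -0.18 to 0.38), INK128 in SK-MEL-147 (NLRC5 -0.20 to 0.044), palbociclib against doxorubicin in SK-MEL-147 (HLA-C -0.56 to 0.022, HLA-E -0.31 to 0.11, HLA-F -0.68 to 0.032, B2M -0.35 to 0.21, TAP1 -0.16 to 0.24, TAPBP -0.17 to 0.13, NLRC5 -0.33 to 0.23), INK128 against palbociclib in SK-MEL-147 (NLRC5 -0.46 to 0.10), the doxorubicin line difference (HLA-F -0.050 to 0.81, B2M -0.073 to 0.59) and the palbociclib line difference (HLA-B -0.14 to 1.19, B2M -0.60 to 0.27). Depth was at least 17929732 counts a library.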

Other observations

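Class II presentation genes, which serve CD4+ T cells and answer to CIITA, a relative of NLRC5, went with the class I chains in SK-MEL-147. All 7 genes read, CIITA, CD74, HLA-DRA, HLA-DMA, HLA-DMB, HLA-DPA1 and HLA-DPB1, were higher with doxorubicin, palbociclib and INK128, where 30.9%, 29.7% and 29.8% of all genes were called higher. CD74 stood at 415 ± 182 CPM in untreated cells (SD, n = 4) and at 3285 ± 838 (doxorubicin), 2531 ± 387 (palbociclib) and 1759 ± 608 CPM (INK128). Its log2 changes were 2.98 ± 0.33, 2.61 ± 0.32 and 2.09 ± 0.32. HLA-DRA rose by 2.98 ± 0.36, 2.68 ± 0.36 and 1.70 ± 0.34. CIITA itself rose in this line, by 2.56 ± 0.31 with doxorubicin, 1.76 ± 0.30 with palbociclib and 2.49 ± 0.31 with INK128, where NLRC5 did not pass with any of the 3 drugs. INK128 thus left CIITA at 190 ± 52.5 CPM, beside 201 ± 42.5 with doxorubicin, while NLRC5 stood at 36.5 ± 5.81 and 43.0 ± 14.9 CPM.

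In A549, CIITA was at 0.537 to 2.73 CPM, and CD74, HLA-DRA, HLA-DPA1 and HLA-DPB1 passed 1 CPM in replicate 1 alone. HLA-DMA rose with doxorubicin (1.91 ± 0.29, or 1.54 ± 0.17 without replicate 1) and palbociclib (1.67 ± 0.29, or 1.44 ± 0.17), and with INK128 it fell (-0.97 ± 0.30, or -1.43 ± 0.20), as did HLA-DMB (-1.78 ± 0.38, or -2.28 ± 0.22).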
